A study of Mus musculus with 14 samples.

Results

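The genes of heterochromatin protein 1 (HP1) and of the enzymes that set or remove methyl groups on lysine 9 of histone H3 (H3K9) were followed in total and ribosome-bound RNA of the mouse testis. These are 10 of the 53239 gene symbols measured: Cbx1, Cbx3 and Cbx5 for the HP1 proteins, Suv39h1, Suv39h2, Setdb1, Ehmt1 and Ehmt2 for the methyltransferases, and Kdm3a and Kdm4d for the demethylases. They were chosen by name, and for each gene the counts of all its annotated transcripts were added up, 80 transcripts in all. The animals were 4 Adad2 mutants (Adad2 M/M, homozygous for the em3 allele) and 3 wild-type mice, all C57BL/6 and 21 days old. Mutants and wild type alike carried 1 copy of RiboTag, which puts an HA tag on the ribosomal protein Rpl22 after Cre recombination, and Stra8-iCre, which switches it on in germ cells from the spermatogonial stage onward. From each whole-testis lysate an HA immunoprecipitate (IP, the RNA bound to tagged ribosomes) and the input (total RNA before the pull-down) were sequenced, which makes 4 mutant and 3 wild-type libraries in each fraction, every library 1 animal. At this age pachytene and diplotene spermatocytes prevail and the earliest round spermatids have formed.

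The libraries held 22832564 to 30241725 expected counts each. Mutant libraries 12 and 69 had fewer genes above 0 than the rest of their groups, in input 16024 and 15438 against 21334 and 27002 in the other mutants and 25319 to 27791 in wild type, while IP libraries had 12744 to 15024 in mutants and 19655 to 21880 in wild type. Adad2 itself, a gene of 1 annotated transcript, had 6.33 to 11.3 counts relative to library size (CPM) in mutant IP against 99.2 to 109 CPM in wild-type IP, and 5.04 to 11.3 CPM in mutant input against 25.0 to 30.1 CPM in wild-type input. Levels of a gene across libraries are given in CPM scaled by trimmed mean of M-values (TMM), and levels of different genes in TPM, the share of a transcript among all transcripts once its length is taken out. The germ cell label was checked against 9 lists of marker genes. The summed level of 8 Sertoli cell markers was 15 to 67.3 CPM in mutant IP and 50.5 to 169 CPM in wild-type IP, below the 580 to 862 CPM of mutant input and 603 to 684 CPM of wild-type input, whereas 8 early meiotic markers stood at 2564 to 3087 CPM in IP and 1154 to 1615 CPM in input over both genotypes. Not every germ cell list was higher in IP. The 10 round spermatid markers summed to 97.4 to 146 CPM in mutant IP against 160 to 184 CPM in mutant input. In wild type they summed to 201 to 209 CPM in IP against 289 to 359 CPM in input. Of 8 late pachytene and diplotene markers, 5 were higher and 3 lower in IP in each genotype. In mutants 3 were called higher and 2 lower, and in wild type 5 higher and 2 lower. Their sum was higher in IP, with means of 5392 CPM against 3278 CPM of input in mutants. In wild type the means were 7564 CPM in IP and 4508 CPM in input. Macrophage markers Cd68, Mrc1 and Lyz2 had no count in any mutant IP library. In whole tissue, fewer cells of a type and less RNA per cell cannot be told apart.

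HP1 proteins read the mark that these enzymes write: their chromodomain binds H3 methylated at lysine 9, and their chromoshadow domain joins HP1 molecules and recruits partners, among them the methyltransferases, so that the mark can spread along chromatin. Suv39h1 and Suv39h2 trimethylate lysine 9 at pericentric repeats, Setdb1 does so at silenced transposons and on the sex chromosomes of spermatocytes, and Ehmt1 and Ehmt2 (GLP and G9a) work as a pair that mono- and dimethylates it. Kdm3a removes mono- and dimethyl groups and Kdm4d removes di- and trimethyl groups. In male germ cells the X and Y chromosomes are silenced in a heterochromatic body at pachytene, and round spermatids gather their pericentric heterochromatin in a chromocenter.

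The coding sequences of the 3 HP1 genes are alike, and the reads of 100 bases have to tell them apart. The stretch in which the leading IP transcripts of the 3 genes are most alike lies in the chromoshadow domain. It is shown because the levels of these 3 genes rest on telling their sequences apart. Capitals mark the bases that are identical in Cbx1, Cbx3 and Cbx5, 80 of the 120 bases, and no run shared by all 3 is longer than 5 bases. By pairs, Cbx1 and Cbx5 share 94 bases, Cbx3 and Cbx5 share 92 and Cbx1 and Cbx3 share 90. The sequences are from the GENCODE M21 transcripts on GRCm38, read 5′ to 3′, for Cbx1-203 (chromosome 11, plus strand, transcript bases 623 to 742), Cbx3-202 (chromosome 6, plus strand, bases 504 to 623) and Cbx5-203 (chromosome 15, minus strand, bases 587 to 706).
Cbx1-203: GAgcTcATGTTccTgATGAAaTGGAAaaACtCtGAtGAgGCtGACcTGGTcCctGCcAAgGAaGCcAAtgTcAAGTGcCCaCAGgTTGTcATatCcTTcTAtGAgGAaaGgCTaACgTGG
Cbx3-202: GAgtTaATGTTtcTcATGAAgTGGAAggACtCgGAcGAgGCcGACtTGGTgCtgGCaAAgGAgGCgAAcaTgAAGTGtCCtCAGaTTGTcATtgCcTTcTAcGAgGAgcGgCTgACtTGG
Cbx5-203: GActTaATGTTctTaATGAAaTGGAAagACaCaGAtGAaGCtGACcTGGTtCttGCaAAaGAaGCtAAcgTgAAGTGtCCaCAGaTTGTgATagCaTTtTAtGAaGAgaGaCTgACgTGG
The processed pseudogenes of Cbx3 took few counts beside it. The 8 annotated ones together had 0 to 66.6 counts in mutant IP, 78.5 to 211 counts in wild-type IP and 0 to 11 counts in any input library, at most 8.16% of the counts of Cbx3 itself. Kdm4dl, a close relative of Kdm4d, had 43 to 221 counts, 1.69 to 8.21% of those of Kdm4d. How RSEM split reads between these copies cannot be checked in the tables.

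Kdm3a, on chromosome 6 (71588972 to 71632990), led the 10 genes in every group. Its mean level was 234 ± 52.6 TPM in mutant IP (SD, n = 4) and 240 ± 19.9 TPM in wild-type IP (n = 3), and 58.9 ± 8.06 TPM in mutant input and 75.8 ± 12.5 TPM in wild-type input. Ehmt2 (chromosome 17, 34898469 to 34914052) followed with 202 ± 53.0 TPM in mutant IP and 185 ± 3.86 TPM in wild-type IP, and 57.1 ± 7.03 TPM in mutant input and 66.1 ± 4.55 TPM in wild-type input. In IP a non-coding transcript of 729 bases, Ehmt2-207, held 40.1 to 65.2% of this TPM but 16.7 ± 5.89% of the counts. In CPM Ehmt2 had 263 ± 40.6 in mutant IP and 293 ± 21.8 in wild-type IP, near the 251 ± 20.7 and 280 ± 4.65 of Setdb1. The means of Kdm3a and Ehmt2 lay within 1 SD of Kdm3a in mutant IP and in both inputs. Cbx1 (chromosome 11, 96789127 to 96808640) and Cbx3 (chromosome 6, 51470360 to 51483704) came next in IP and could not be put in order, Cbx1 with 143 ± 39.4 TPM in mutants and 125 ± 10.5 TPM in wild type and Cbx3 with 138 ± 17.7 TPM in mutants and 124 ± 8.20 TPM in wild type. Setdb1 (chromosome 3, 95323525 to 95357202), Cbx5 (chromosome 15, 103191544 to 103239816) and Kdm4d (chromosome 9, 14462548 to 14500482) followed in wild-type IP, and in mutant IP the mean of Ehmt1 lay between those of Cbx5 and Kdm4d. Setdb1 stood at 71.9 ± 4.90 TPM in mutant IP and 79.7 ± 4.97 TPM in wild-type IP, Cbx5 at 57.9 ± 8.68 TPM in mutant IP and 70.8 ± 8.04 TPM in wild-type IP, and Kdm4d at 39.2 ± 14 TPM in mutant IP and 69.4 ± 3.00 TPM in wild-type IP.

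Both Suv39h genes were low in total RNA. Suv39h2 (chromosome 2, 3455815 to 3475031), the Suv39h gene known for its expression in testis, had 6.17 ± 1.58 TPM in mutant input and 7.54 ± 0.356 TPM in wild-type input. Its paralog Suv39h1, on the X chromosome (8061171 to 8074760) and thus subject to meiotic silencing, had 2.28 ± 1.19 TPM in mutant input and 3.16 ± 0.0153 TPM in wild-type input. Ehmt1 (chromosome 2, 24789928 to 24919614) varied widely in total RNA, with 15.9 ± 14.9 TPM in mutant input and 4.81 ± 1.79 TPM in wild-type input: its counts were 0, 1697, 482 and 521 in the 4 mutant inputs and 233, 135 and 655 in the 3 wild-type inputs. The library at 0 was mutant 12, where 3 counts would have been 0.115 CPM. In IP the Ehmt1 counts ran from 1297 to 1801 in mutants and from 665 to 1025 in wild type, which is 41.7 to 62.1 CPM in mutants and 27.6 to 44.4 CPM in wild type, and the genotypes overlapped. In TPM they did not, with 52.1 ± 18.3 TPM in mutant IP and 18.7 ± 4.78 TPM in wild-type IP. Short transcripts held part of this TPM, as RSEM assigned the reads. Ehmt1-212 (756 bases) had 0 to 29.15 TPM in mutant IP and 0 to 3.42 TPM in wild-type IP. Ehmt1-211 (884 bases) had 0.07 to 31.62 TPM in mutant IP and 0.35 to 7.08 TPM in wild-type IP. Their part in the gap was not tested, and no share of all features without overlap in TPM is given here. The 2 Suv39h genes were close in IP, with 8.25 ± 1.79 TPM for Suv39h2 and 11.8 ± 5.84 TPM for Suv39h1 in mutants, and 10.9 ± 0.957 TPM for Suv39h2 and 9.82 ± 1.81 TPM for Suv39h1 in wild type.

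**Figure D1:**
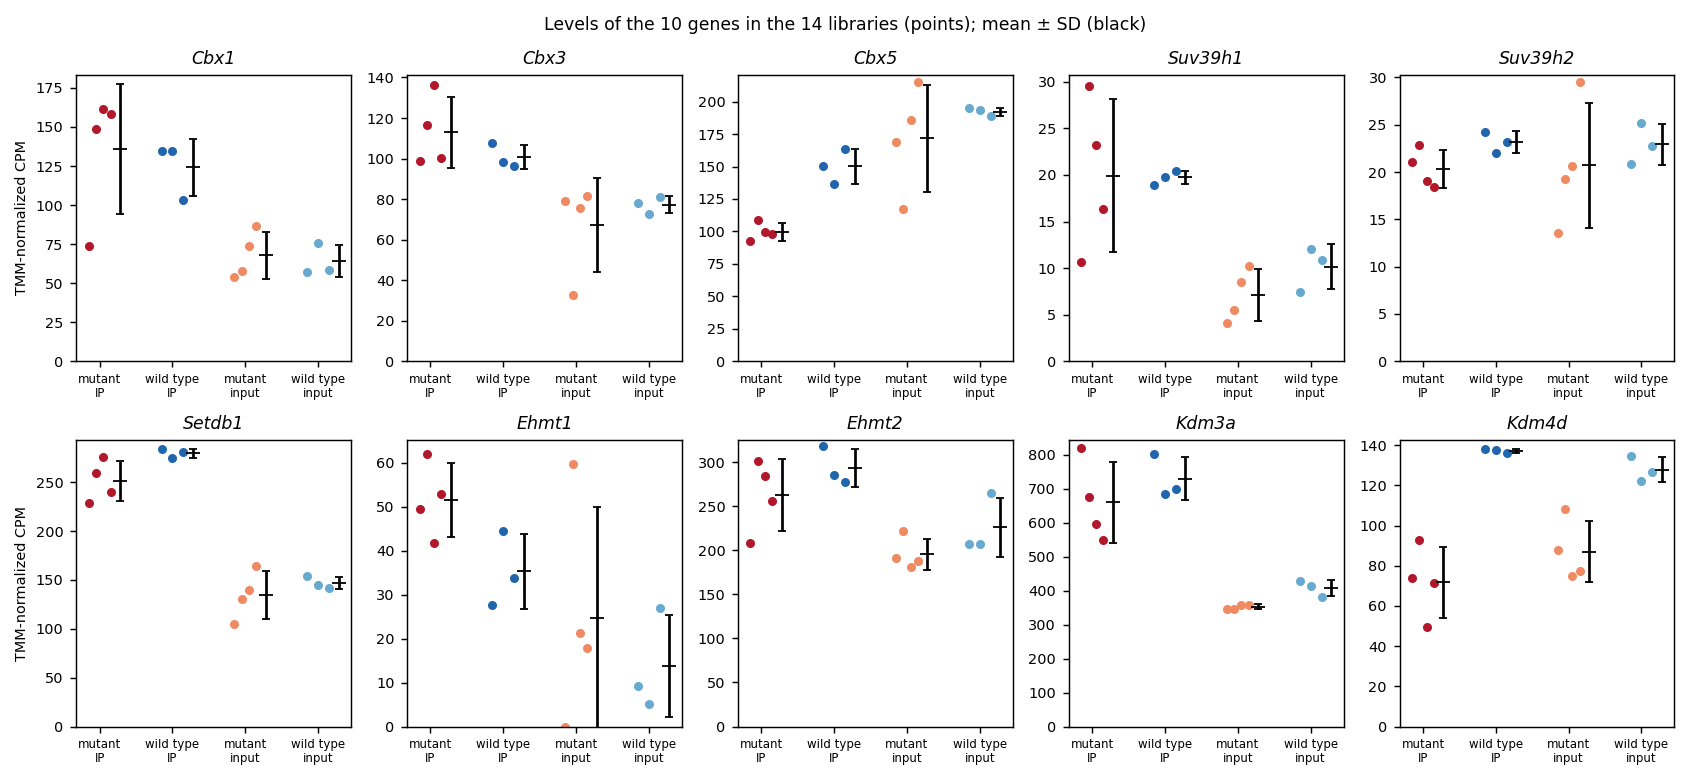
TMM-normalized CPM (y axis) of the 10 genes in mutant IP, wild-type IP, mutant input and wild-type input (x axis). Points are libraries and black marks are the mean with its SD. Cbx5 in IP (92.4 to 109 CPM in mutants, 136 to 164 CPM in wild type) and Kdm4d in both fractions do not overlap between genotypes, nor does Kdm3a in input.

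Cbx5 and Kdm4d were the members with the lowest ribosome-bound levels in mutants relative to wild type, and neither passed the test over all features. Cbx5, which encodes HP1α, had 92.4, 109, 99.8 and 97.9 CPM in mutant IP against 150.4, 136 and 164 CPM in wild-type IP. All 4 mutant libraries were below the 3 wild-type libraries. Its log2 fold change was -0.57 (standard error, SE, 0.11), with an unadjusted p of 0.00126 and an adjusted p of 0.114 from edgeR. DESeq2, run beside it, gave an adjusted p of 0.00092, and limma on log2(TPM + 0.1) gave a log2 difference of -0.30 with an adjusted p of 0.546. In TPM the genotypes of Cbx5 overlapped, at 45 to 63.9 TPM in mutant IP and 63.1 to 79.2 TPM in wild-type IP.

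Kdm4d, a demethylase known for its high expression in testis, had 73.7, 92.8, 49.6 and 71.5 CPM in mutant IP against 138, 138 and 136 CPM in wild-type IP. The 3 wild-type libraries were nearly equal and all 4 mutants lay well below them. The log2 fold change was -0.91 (SE 0.21), and the adjusted p was 0.114 by edgeR and 0.0034 by DESeq2. In input Kdm4d had 87.8, 108, 74.8 and 77.5 CPM in mutants against 134, 122 and 127 CPM in wild type. Again the genotypes did not overlap, and the log2 fold change was -0.54 (SE 0.16, unadjusted p = 0.00955, adjusted p = 0.354 from edgeR). Over all features, the libraries of the genotypes did not overlap for 16.8% in IP and 13.8% in input, and for 2 of the 10 members in each, Cbx5 and Kdm4d in IP and Kdm3a and Kdm4d in input, so the members did so about as often as other features.

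No member passed the test between genotypes in either fraction, where edgeR called 0.00764% of 26186 features in IP and 0.0082% of 36572 in input. At an unadjusted p under 0.05 there were 3 members in IP, of which Ehmt1 was higher (log2 fold change 0.57, SE 0.24, unadjusted p = 0.0452), and 2 in input. DESeq2 called 2 members in IP, Cbx5 and Kdm4d, where it called 9.56% of all features, and 0 in input, where it called 3.13%. On log2(TPM + 0.1) limma called 1 member in IP, Ehmt1, and 7.02% of all features. The TPM of Ehmt1 in mutant IP rests in part on the short transcripts given above. In input Kdm3a, which in mice is needed to open the chromatin of spermatid genes such as those of protamines, had 347, 345, 358 and 358 CPM in mutants against 429, 414 and 382 CPM in wild type (log2 fold change -0.20, SE 0.07, adjusted p = 0.596 from edgeR). In IP the Kdm3a genotypes overlapped, with 549 to 819.8 CPM in mutants and 685 to 801 CPM in wild type. The median log2 fold change of the 10 members was -0.13 in IP, against -0.15 over all features tested, and -0.18 in input, against -0.18 over all features.

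The genotypes of the other 2 HP1 genes overlapped in both fractions. Cbx1, which encodes HP1β, had 73.7, 149, 162 and 158 CPM in mutant IP against 135, 134 and 103 CPM in wild-type IP (log2 fold change 0.15, SE 0.27, adjusted p = 1 from edgeR). Mutant 12 stood far below the other mutants. Cbx3, which encodes HP1γ, had 99.0, 117, 136 and 100.1 CPM in mutant IP against 108, 98.3 and 96.3 CPM in wild-type IP (log2 fold change 0.19, SE 0.15). In input Cbx3 had 79.1, 32.6, 75.8 and 81.4 CPM in mutants and 78.1, 72.6 and 81.2 CPM in wild type, mutant 69 alone being low. Setdb1 had 229 to 276 CPM in mutant IP against 275 to 284 CPM in wild-type IP, a log2 fold change of -0.13 (SE 0.09). Ehmt2 had 209 to 302 CPM in mutant IP against 277 to 318 CPM in wild-type IP (log2 fold change -0.14, SE 0.14). The log2 fold change in IP was 0.04 for Suv39h1 (SE 0.39) and -0.16 for Suv39h2 (SE 0.25).

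Marker genes of later germ cells stood apart in the same libraries as Kdm4d and Cbx5. The summed level of 8 late pachytene and diplotene markers was 5036 to 5612 CPM in mutant IP against 7255 to 8157.5 CPM in wild-type IP, and 3075 to 3459 CPM in mutant input against 4232 to 4705 CPM in wild-type input. All 8 had a log2 fold change below 0 in both fractions and 0 of the 8 passed the test in either. The 10 round spermatid markers summed to 97.4 to 146 CPM in mutant IP against 201 to 209 CPM in wild-type IP, with Tnp1, Prm1, Prm2, Gapdhs and Odf1 at 0 in every mutant IP library. Of the 10, 6 were tested in IP, all 6 with a log2 fold change below 0 and 0 called. Fewer genes of any kind were above 0 in mutant IP, 12744 to 15024 against 19655 to 21880 in wild-type IP. Cd68, Mrc1, Lyz2 and Hbb-bt, markers of macrophages, vessels and blood, were also at 0 in every mutant IP library. The 8 spermatogonial markers summed to 533 to 864 CPM in mutant IP and 461 to 597 CPM in wild-type IP. The part of these markers in the levels of Kdm4d and Cbx5 was not tested.

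**Figure D2:**
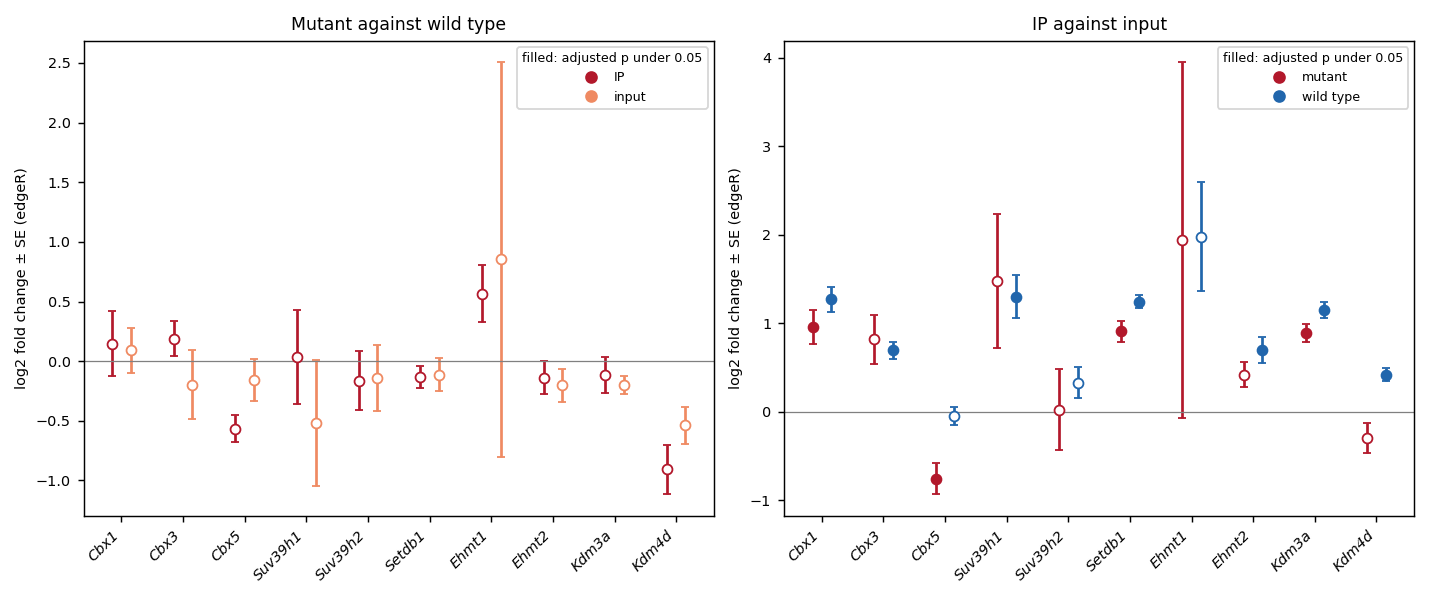
Log2 fold changes from edgeR with their standard errors (y axis) for the 10 genes (x axis), mutant over wild type within IP and within input on the left and IP over input within mutants and within wild type on the right. Filled points passed an adjusted p of 0.05: 0 in the left panel, 4 in mutants and 7 in wild type in the right panel.

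The genes called between fractions were mostly higher in ribosome-bound than in total RNA. In mutants 3 of the 10 members were called higher in IP, where 6.35% of 22918 features were called higher, and 1 was called lower, where 3.56% of features were. In wild type 7 of the 10 were called higher and 0 lower, against 13% and 6.37% of 34864 features. The median log2 fold change of the members was 0.85 in mutants, against -0.63 over all features tested, and 0.92 in wild type, against -0.60 over all features. These backgrounds hold many features of low count. With at least 10 counts in every library, the mutant medians were 0.65 for 9 members and -0.02 over all features. There 4 members and 1960 of 9872 features were called higher. In wild type the medians were 0.75 and -0.09, with 7 members and 5512 of 19518 features called higher. Each comparison was scaled on its own libraries, so a fold change here can differ from the ratio of the CPM given above. The wild-type fold changes stood above that ratio: its mean log2 was 0.93 for Setdb1, 0.83 for Kdm3a and 0.96 for Cbx1. In mutants it was 0.91, 0.89 and 0.96. The medians and numbers of calls are therefore no comparison of the genotypes. With RLE factors 6 members were called higher in wild type and 2 in mutants, and with upper-quartile factors 5 and 3. Over all features, RLE factors called 4594 of 34864 higher in wild type and 1174 of 22918 in mutants. Upper-quartile factors called 4336 and 1525 higher. In mutants 3 members were called higher without animal 12, 1 was called lower and 0 higher without animal 69, 1 was called higher without animal 93, 2 without animal 94, and 0 were called without mutants 12 and 69 together. Calls over all features fell as well. Without animals 12, 69, 93 and 94 in turn, 1004 of 25355, 910 of 25923, 657 of 22763 and 636 of 22194 features were called higher. Without mutants 12 and 69 together, 6 of 31795 features were called higher and 6 lower. DESeq2 called 7 members in mutants and 43.8% of all features, and limma called 7 members and 26.4% of all features on log2(TPM + 0.1) or 27.6% on log2(TPM + 1). In wild type 5 members were called higher without animal 17, where 2666 of 37065 features were called higher and 1088 lower. Without animal 121 or animal 140 edgeR called 0 members and 0 features in all, with 7 and 6 members at an unadjusted p under 0.05.

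Setdb1 and Kdm3a had the smallest adjusted p of the 10 members in both genotypes. Setdb1 had 229, 259, 276 and 240.4 CPM in mutant IP against 105, 130.2, 139.8 and 164 CPM in the inputs of the same mutants (log2 fold change 0.91, SE 0.12, adjusted p = 0.00718 from edgeR). In wild type it had 284, 275 and 281 CPM in IP against 154, 145 and 142 CPM in input (log2 fold change 1.24, SE 0.07, adjusted p = 0.00634). Every IP library of Setdb1 was above every input library. Kdm3a had log2 fold changes of 0.89 in mutants (SE 0.10, adjusted p = 0.00514) and 1.15 in wild type (SE 0.09, adjusted p = 0.00698), and its IP levels of 549 to 819.8 CPM all lay above its input levels of 345 to 429 CPM. Cbx1 was also called in both genotypes, at 0.96 in mutants (SE 0.19, adjusted p = 0.0327) and 1.27 in wild type (SE 0.14, adjusted p = 0.0123). Its input levels were 53.9 to 86.7 CPM in mutants and 57.5 to 75.9 CPM in wild type.

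Cbx3, Suv39h1, Ehmt2 and Kdm4d were called higher in IP in wild type alone, and whether the genotypes differ in this is tested further on. In mutants the log2 fold changes were 0.82 for Cbx3 (SE 0.28), 1.48 for Suv39h1 (SE 0.76), 0.42 for Ehmt2 (SE 0.14) and -0.30 for Kdm4d (SE 0.17). In wild type they were 0.69 for Cbx3 (adjusted p = 0.0191), 1.3 for Suv39h1 (adjusted p = 0.0353), 0.70 for Ehmt2 (adjusted p = 0.0498) and 0.42 for Kdm4d (adjusted p = 0.0302), all from edgeR. On the scale common to all libraries, mean log2 CPM ratios in wild type were 0.38 for Cbx3 and 0.99 for Suv39h1. For Ehmt2 and Kdm4d they were 0.38 and 0.10. Ehmt1 had log2 fold changes of 1.94 in mutants and 1.98 in wild type with SE of 2.01 and 0.62, and did not pass in either. Suv39h2 had 0.02 in mutants and 0.33 in wild type and did not pass.

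Cbx5 went its own way among the HP1 genes. It was called lower in mutant IP than in mutant input (log2 fold change -0.76, SE 0.17, adjusted p = 0.0478 from edgeR), with 92.4, 109, 99.8 and 97.9 CPM in IP against 169, 117, 186 and 215 CPM in input. In each of the 4 mutants IP was below input. Leaving out mutant 12, 93 or 94 ended this call, with adjusted p of 0.222, 0.194 and 0.203. In wild type its log2 fold change was -0.05 (SE 0.10, adjusted p = 0.737). On the CPM scale common to all libraries IP was below input in each wild-type animal too, with log2 ratios of -0.37, -0.50 and -0.21. Whether the genotypes differ in this is tested further on. The sign of these values turned with the unit: limma on log2(TPM + 0.1) gave 1.27 in mutants (adjusted p = 0.0109) and 1.28 in wild type (adjusted p = 0.00296).

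The study's measure of ribosome association is the TPM in IP over the TPM in input of the same animal. Cbx1 had ratios of 3.50, 6.98, 4.86 and 4.36 in mutants and 4.70, 3.40 and 4.62 in wild type. Cbx3 had 3.47, 9.30, 4.81 and 3.36 in mutants and 3.03, 3.32 and 3.68 in wild type, the highest value being that of mutant 69 with its low input. Cbx5 had 2.65, 3.34, 1.74 and 2.23 in mutants and 2.53, 1.99 and 2.89 in wild type. Over 16069 features measured in every input library, the median log2 TPM ratio was itself 0.35 to 0.75 in the mutant animals and 0.29 to 0.74 in the wild-type animals. Suv39h2 and Kdm4d stood closest to the typical feature. Suv39h2 had ratios of 1.02 to 1.84 in mutants and 1.25 to 1.64 in wild type, and Kdm4d had 1.22 to 1.89 in mutants and 1.52 to 2.07 in wild type.

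Suv39h1 had the smallest p of the 10 ratios between genotypes, and it did not pass after adjustment. It had 6.77, 5.25, 5.14 and 4.39 in mutants against 3.66, 2.50 and 3.15 in wild type. All 4 mutants were above all 3 wild-type animals, and no share of all features that separate on this ratio is given here. The ratios rest on 107 to 296 input counts in mutants and 189 to 314 in wild type. The difference of the mean log2 ratios was 0.79, with p = 0.0286 by an exact 2-sided permutation test of the 7 animals, the smallest p it can give, and an adjusted p of 0.286 over the 10 members. The ratio of TMM-normalized CPM gave a difference of 0.49 for Suv39h1 (exact p = 0.343). There the genotypes overlapped, with ratios of 1.61 to 5.37 in mutants and 1.64 to 2.55 in wild type. The differences of Cbx3 (0.52), Cbx5 (-0.01), Ehmt1 (-0.80, with mutant 12 left out because its input was 0) and Kdm4d (-0.10) had exact p of 0.257, 1, 0.3 and 0.714. None of the 10 members passed, and the adjusted p ran from 0.286 to 1.

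**Figure D3:**
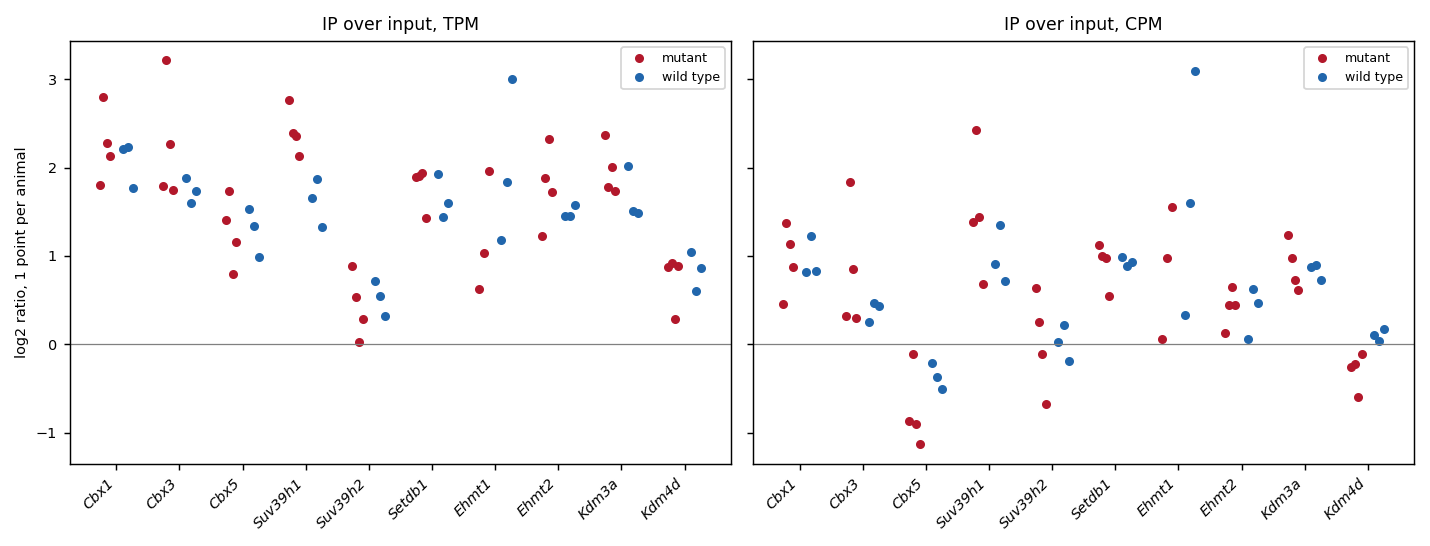
Log2 of IP over input of the same animal (y axis) for the 10 genes (x axis), in TPM on the left and in TMM-normalized CPM on the right, 1 point per animal with mutants left of wild type. The Cbx5 points are above 0 in TPM and below 0 in CPM. Ehmt1 has 3 mutant points because 1 input was 0.

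The difference between genotypes in IP over input was also tested on counts, over 16069 features of which edgeR called 0%. It called 0 of the 9 members tested, Ehmt1 being left out for its input at 0, and 1 member had an unadjusted p under 0.05. That was Kdm4d, whose difference was -0.40 on the log2 scale (SE 0.17, unadjusted p = 0.0492, adjusted p = 0.691). Cbx5 had -0.40 (SE 0.23), Cbx3 0.43 (SE 0.37) and Suv39h1 0.48 (SE 0.60). DESeq2 called 0 of the 9 as well, and 6.08% of all features. The calls of Cbx3, Suv39h1, Ehmt2 and Kdm4d in wild type alone, and that of Cbx5 in mutants alone, are thus not shown to differ between genotypes.

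IP and input differed in the transcripts of these genes to which RSEM assigned reads. How it split reads among transcripts of 1 gene cannot be checked here, and some shares varied widely within a group. In mutant IP Kdm3a-202 ran from 3.14 to 42.9% of its gene's TPM and Ehmt2-202 from 0 to 38.9%. In all 7 animals the HP1 genes were assigned to transcripts that were on average shorter in IP than in input. Of Cbx1, Cbx1-203 made up 88.8, 96.8, 90.3 and 91.2% of the gene's TPM in mutant IP and 86.9, 83.2 and 75.3% in wild-type IP, against 29.2 to 58.3% in mutant input and 36.6 to 55.0% in wild-type input. It is a protein-coding transcript of 1251 bases. Cbx1-204, annotated as a target of nonsense-mediated decay with 2377 bases, made up 3.20 to 15.4% in IP and 29.9 to 53.1% in input. The IP and input ranges of either transcript did not overlap.

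Of Cbx3, Cbx3-202 held 77.3 to 92.4% of the TPM in mutant IP and 85.5 to 87.1% in wild-type IP. In input it held 13.5 to 38.1% in mutants and 0 to 17.0% in wild type. Cbx3-204 held 0 to 12.8% in IP over both genotypes and 19.7 to 82.6% in input. Both encode a coding sequence of 549 bases and differ outside it, since the 3′ untranslated region (UTR) has 430 bases in Cbx3-202 and 1101 in Cbx3-204. The same held for Cbx5. Cbx5-202 and Cbx5-203 each have 573 coding bases, but the 3′ UTR has 8100 bases in Cbx5-202 and 389 in Cbx5-203. Cbx5-203 held 73.7 to 80.0% of the TPM in mutant IP and 69.7 to 82.6% in wild-type IP, against 37.0 to 51.5% in mutant input and 35.5 to 36.7% in wild-type input.

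The sign of the Cbx5 comparison turned with the unit, and the 2 transcripts are given in both, as RSEM assigned the reads. As a share of the gene, Cbx5-202 held 57.9 ± 13.7% of the counts but 16.6 ± 6.46% of the TPM in IP, and 81.9 ± 7.18% of the counts but 45.9 ± 6.80% of the TPM in input (SD, n = 7 each). Cbx5-203 had 27.8 to 40.4 CPM in mutant IP and 35.5 to 53.0 CPM in wild-type IP, above its 9.88 to 18.2 CPM in mutant input and 12.5 to 14.8 CPM in wild-type input. Cbx5-202 had 33.3 to 62.1 CPM in mutant IP and 92.6 to 123 CPM in wild-type IP, below its 80.6 to 177 CPM in mutant input and 156 to 169 CPM in wild-type input. Counts grow with transcript length and TPM do not. Between genotypes in IP, Cbx5-202 did not overlap and was lower in mutants, while the Cbx5-203 ranges overlapped. A further transcript, Cbx5-201, did not overlap either and ran the other way, with 9.92 to 24.2 CPM in mutant IP against 0.488 to 5.12 CPM in wild-type IP. Cbx5-201 held 7.44 to 13.4% of the TPM in mutant IP and 0.215 to 2.84% in wild-type IP. These transcripts were picked after their values were seen and were not tested between genotypes. Among all features tested, 16.8% did not overlap in IP, and no share over single annotated transcripts is given here.

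**Figure D4:**
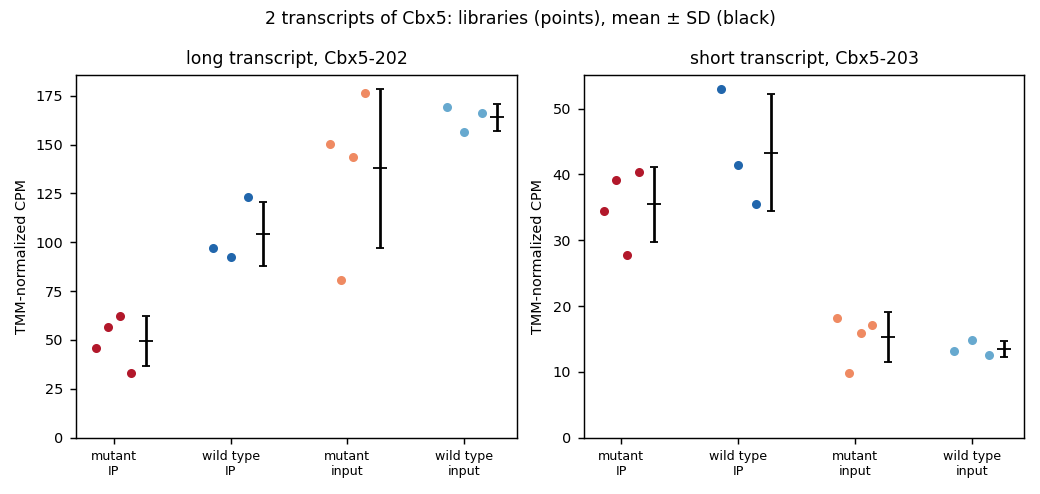
TMM-normalized CPM (y axis) of the long transcript Cbx5-202 on the left and the short transcript Cbx5-203 on the right, in mutant IP, wild-type IP, mutant input and wild-type input (x axis). Points are libraries and black marks are the mean with its SD. In IP the long transcript is at 33.3 to 62.1 CPM in mutants and 92.6 to 123 CPM in wild type.

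Cbx5-202 starts at position 103239816 of chromosome 15 and Cbx5-203 at 103215305, both on the minus strand of GRCm38. RefSeq (GRCm38.p6) lists 2 promoter windows for Cbx5, each running from upstream of a gene start a short way into the transcript. They are shown because 1 of these transcript starts lies in each. The downstream window is set on the start of Cbx5-201, at 103215352, and Cbx5-203 begins only near its end. Cbx5-201 held 5.77 ± 4.62% of the gene's TPM in IP and 13.3 ± 8.90% in input (SD, n = 7 each). The window is thus not that of Cbx5-203 alone. The Suv39h2 window is shown for a motif that is rare elsewhere. All 10 members matched the RefSeq table, with 16 windows among them. Capitals mark matches on either strand to GGGCGG (the GC box), CCAAT and TGACGTCA (the cyclic AMP response element, CRE), and no 2 matches overlap in these 3 windows.
Cbx5, upstream start, chr15:103239803-103240102, minus strand: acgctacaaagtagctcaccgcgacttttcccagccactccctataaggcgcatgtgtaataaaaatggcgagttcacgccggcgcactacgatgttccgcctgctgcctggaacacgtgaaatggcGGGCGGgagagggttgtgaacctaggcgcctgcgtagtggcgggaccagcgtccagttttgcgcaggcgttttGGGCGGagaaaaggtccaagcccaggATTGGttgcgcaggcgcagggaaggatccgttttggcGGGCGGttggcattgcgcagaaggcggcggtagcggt
Cbx5, downstream start, chr15:103215303-103215602, minus strand: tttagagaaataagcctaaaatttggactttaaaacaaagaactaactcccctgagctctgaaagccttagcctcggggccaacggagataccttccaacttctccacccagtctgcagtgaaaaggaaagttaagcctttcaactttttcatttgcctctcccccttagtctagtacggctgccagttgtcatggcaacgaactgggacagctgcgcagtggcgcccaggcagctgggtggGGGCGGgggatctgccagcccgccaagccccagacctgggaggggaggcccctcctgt
Suv39h2, chr2:3474937-3475236, minus strand: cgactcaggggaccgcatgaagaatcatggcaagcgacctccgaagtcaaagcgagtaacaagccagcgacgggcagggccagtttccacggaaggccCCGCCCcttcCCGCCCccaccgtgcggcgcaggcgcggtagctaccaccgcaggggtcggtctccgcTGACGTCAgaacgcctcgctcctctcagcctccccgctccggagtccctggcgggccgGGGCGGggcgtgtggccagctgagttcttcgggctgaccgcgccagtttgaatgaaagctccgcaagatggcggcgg
The upstream Cbx5 window held 3 GC boxes and 1 CCAAT box and 60.3% G and C, the downstream one 1 GC box, 0 CCAAT boxes and 54.7% G and C. Suv39h2 was the only member with a CRE match, at bases 166 to 173 of its window, where 1.79% of 32851 mouse promoter windows hold one. A GC box was found in 35.7% and a CCAAT box in 37.4% of these windows. A match is a description of the letters and not of binding.

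Setdb1 and Kdm3a each had a transcript that was nearly confined to 1 fraction in these libraries. Setdb1-204, which keeps an intron, was at 0 in all 4 mutant IP libraries and held 0.538 to 2.12% of the gene's TPM in wild-type IP. It held 9.85 to 19.9% in mutant input and 9.02 to 11% in wild-type input. Kdm3a-203, a transcript of 2723 bases whose annotation ends inside the coding sequence, was the reverse: it held 10.6 to 34.5% in mutant IP and 19.9 to 30.8% in wild-type IP. In IP it had 1483 to 4877 counts in mutants and 2502 to 3582 counts in wild type. In input it was listed at 0 in 3 of 4 mutants, with 19.4 counts in mutant 12, and in all 3 wild-type libraries. These transcripts were chosen after their values were seen, and no test was made of them. Shares computed from expected counts kept the direction for Cbx1-203, Cbx3-202, Cbx5-203, Setdb1-204 and Kdm3a-203.

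**Figure D5:**
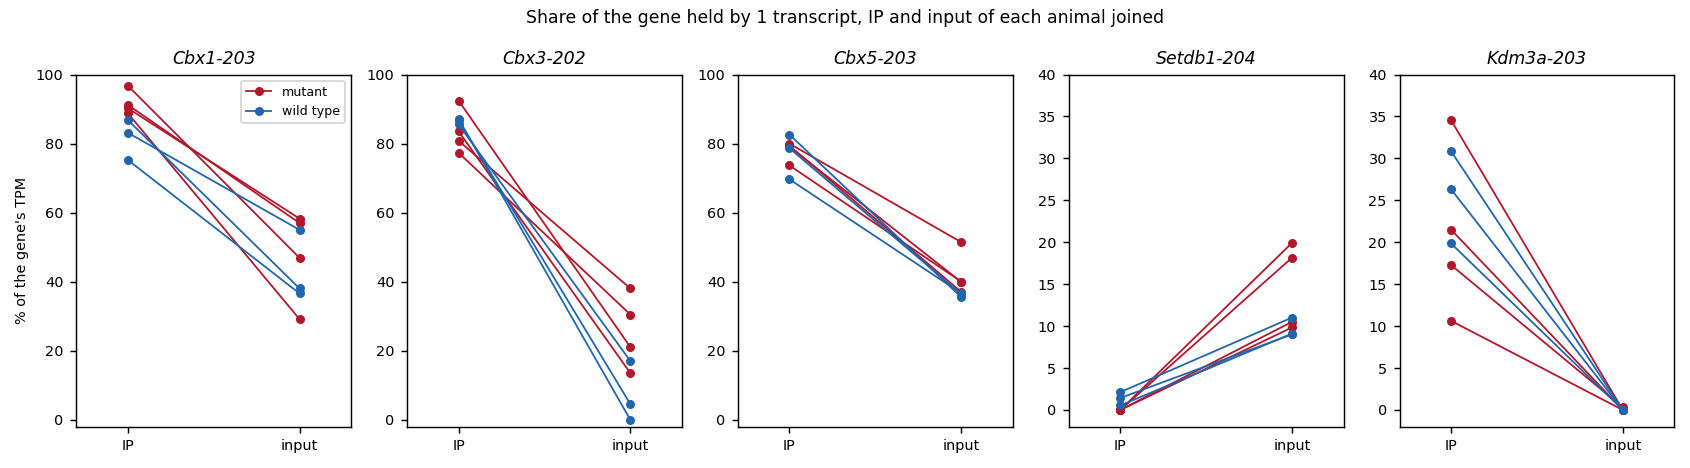
Share of the gene's TPM held by 1 transcript (y axis, percent), with IP left of input and 1 line per animal. Cbx1-203, Cbx3-202, Cbx5-203 and Kdm3a-203 fall and Setdb1-204 climbs along every line from IP to input.

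Such differences between IP and input are common. Among 9777 protein-coding genes with more than 1 transcript and at least 1 TPM in both fractions, the leading transcript differed between IP and input for 35.5%, and the mean transcript length weighted by TPM was shorter in IP for 66.9%. Among the members the counts were 5 of 10 and 7 of 10. The weighted length of Cbx5 was 2566 bases in IP and 4984 bases in input, that of Cbx3 1182 and 1665 bases, and that of Cbx1 1365 and 1725 bases, shorter in IP in all 7 animals for each. Suv39h2, Ehmt1 and, slightly, Setdb1 ran the other way, with weighted lengths of 3148 bases in IP against 2397 bases in input for Suv39h2 and 1980 against 1660 bases for Ehmt1. The number of member transcripts above 0 was 29 to 37 of 80 in mutant IP, 47 to 55 in wild-type IP, 23 to 60 in mutant input and 52 to 57 in wild-type input. The ranges did not overlap in IP and overlapped in input, where mutant 94 had the 60. Whole libraries showed the same gap in IP, with 12744 to 15024 genes above 0 in mutants and 19655 to 21880 in wild type. The numbers of member transcripts are thus not particular to these genes.

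The share of a gene's TPM in transcripts annotated as protein coding was tested over the animals. It was higher in IP in 7 of 7 animals for Cbx1 (89.4 ± 4.40% in IP and 57.2 ± 8.11% in input), for Setdb1 (96.6 ± 3.76% in IP and 79.0 ± 10.6% in input) and for Cbx3 (99.7 ± 0.438% in IP and 96.2 ± 2.25% in input). Each had p = 0.0156 by an exact sign-flip test, the smallest that 7 animals can give, and an adjusted p of 0.0417 over the 8 members with more than 1 kind of transcript. No call can be made with any 1 animal left out, since 6 animals allow no adjusted p below 0.05 here. Ehmt2 went the other way in 6 of 7 animals, with 46.7 ± 8.30% in IP and 61.7 ± 11% in input (exact p = 0.0469, adjusted p = 0.0938). Its leading transcript in IP was Ehmt2-207, a non-coding processed transcript of 729 bases, at 40.1 to 65.2% of the TPM in IP and 0 to 43.9% in input. Kdm3a was higher in IP in 5 of 7 animals (adjusted p = 0.15 by the exact sign-flip test). Over 8888 protein-coding genes with transcripts of more than 1 kind the median share was 83.5% in IP and 84.0% in input, and it was higher in IP for 49.3% of them. Between genotypes no member passed within IP or within input, where Kdm3a had the smallest p in IP, with a mean share of 84.4% in mutants and 91.6% in wild type (exact permutation p = 0.0286, adjusted p = 0.229).

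Shares of TPM among paralogs compare genes within 1 library, and none of 12 such comparisons passed between genotypes. Of the 3 HP1 genes together, Cbx5 held 17.4 ± 3.99% in mutant IP and 22.1 ± 1.34% in wild-type IP, a difference of -4.73 percentage points (exact permutation p = 0.114, adjusted p = 0.343 over 12 comparisons). In input Cbx5 held 28.9 ± 2.56% in mutants and 30.1 ± 0.800% in wild type. Of Kdm3a and Kdm4d together, Kdm4d held 26.4 to 30.1% in mutant input against 32.6 to 36% in wild-type input (exact permutation p = 0.0286, the smallest possible, adjusted p = 0.229). In IP it held 9.95 to 19.2% in mutants and 21.3 to 23.9% in wild type (exact permutation p = 0.0571). The genotypes did not overlap in either fraction. Suv39h2 held 42.8 ± 8.81% of the 2 Suv39h genes in mutant IP and 52.7 ± 3.66% in wild-type IP, against 74.2 ± 7.14% in mutant input and 70.4 ± 0.881% in wild-type input. Ehmt1 held 21.4 ± 9.96% of Ehmt1 and Ehmt2 in mutant IP and 9.14 ± 2.25% in wild-type IP (exact permutation p = 0.0571).

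The other genes of the pathway formed a list of 33: 12 writers and their partners, 4 subunits of the HUSH complex, 9 demethylases and 8 partners of HP1. In mutants 7 of the 33 were called higher in IP and 2 lower, with a median log2 fold change of 0.47, where 6.35% of all features were called higher and 3.56% lower. In wild type 16 of the 32 tested were called higher and 2 lower, with a median of 0.84, where 13% of all features were called higher and 6.37% lower. Uhrf1, which binds H3K9 methylation and hemimethylated DNA, had log2 fold changes of 1.55 in mutants and 1.95 in wild type (adjusted p = 0.00143 and 0.00634 from edgeR). Trim28, the corepressor that brings Setdb1 to its targets, had 1.52 in mutants and 1.92 in wild type (adjusted p = 0.00144 and 0.00634). Mphosph8, the H3K9 methyl reader of the HUSH silencing complex, had 1.61 in mutants and 1.92 in wild type. Wiz, a zinc-finger partner of Ehmt1 and Ehmt2, had 1.78 in wild type, and Lbr, the inner nuclear membrane receptor that binds HP1, had 1.12 in mutants. Kdm7a, a demethylase of H3K9 and H3K27, was called lower in IP in both, at -1.89 in mutants and -1.04 in wild type, as was Zfp644, another partner of Ehmt1 and Ehmt2, at -0.92 in mutants and -0.59 in wild type. The levels of Zfp644 were 91.0 ± 33.0 CPM in mutant IP, 88.2 ± 2.71 CPM in wild-type IP, 165 ± 26.0 CPM in mutant input and 166 ± 12.4 CPM in wild-type input.

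Between genotypes 0 of the pathway list passed in IP (32 tested) or in input (33 tested), with 3 at an unadjusted p under 0.05 in each. In IP these were led by Kdm1a, a demethylase of H3K4 and H3K9, with a log2 fold change of -0.35 (SE 0.10, adjusted p = 0.139 from edgeR), and Fam208a, the HUSH subunit TASOR, at -0.44 (SE 0.14, adjusted p = 0.172). In input they were led by Atf7ip2, a relative of the Setdb1 partner Atf7ip, at -0.71 (SE 0.24, adjusted p = 0.494), and Kdm1a at -0.28 (SE 0.10, adjusted p = 0.593). In the difference of IP over input 0 of the 28 tested passed, and the 2 smallest p belonged to Kdm7a at -0.54 (SE 0.21, adjusted p = 0.645) and Kdm4b at -0.96 (SE 0.41, adjusted p = 0.687). The median over the list was -0.06 in IP and -0.04 in input, against -0.15 and -0.18 over all features.

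Over the 14 libraries, which share animals and fractions, the genes whose log2 CPM ran most like that of a member were found among 13736 genes. For Cbx1 these were Nol7, Pabpn1 and Tor2a, with Pearson correlations of 0.97 each. For Cbx3 they were Fcf1, Akr7a5 and Mrpl14, also at 0.97. For Cbx5 they were Dpysl2, F8 and Zfp820, at 0.97 each. For Kdm4d they were Spata46, Syt11 and Pkd2l2, at 0.95, 0.94 and 0.94.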

How the data were processed

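Input and HA-IP RNA of 7 animals (14 libraries) was sequenced after rRNA depletion with a stranded kit. The authors removed rRNA reads with Bowtie2, trimmed reads to 100 bases with Trimmomatic, and quantified Ensembl GRCm38.90 plus assembled testis transcripts with RSEM 1.3.3. The deposited expected counts and TPM per transcript were used, and how strand was set in counting is not given in the sources used here. Of 133849 Ensembl transcripts 133445 matched GENCODE M21 by ID, and they were summed per gene. The 48888 assembled transcripts stayed features of their own and 92 spike-ins were left out.

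Expected counts were rounded and tested with edgeR 4.0.16 in R 4.3.3 (quasi-likelihood test, TMM, filterByExpr, Benjamini-Hochberg over all features, called at an adjusted p under 0.05), with the animal as a block wherever IP and input were compared. The study's EBSeq was not used here. The pairing comes from the animal number in the titles. Over all features, the 2 libraries of an animal hardly deviated together from their group means, with correlations of 0.01 to 0.0789. For IP over input between genotypes, features at 0 in any input library were left out. Ratios and shares were tested by exact permutation or sign-flip tests of the 7 animals, 2-sided. Alternatives were RLE and upper-quartile factors, other filters, DESeq2 1.42.0, limma 3.58.1 on log2(TPM + 0.1) and log2(TPM + 1), protein-coding transcripts only, no block, and animals left out. The tests were checked on simulated data. Depth was 22832564 to 30241725 counts per library, and the limit beside a count of 0 covers counting error only.

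All 10 members are named. Of the pathway list, up to 4 called genes of smallest p in each direction are named, or the 2 of smallest p where fewer than 2 passed, and for Cbx1, Cbx3, Cbx5 and Kdm4d the 3 genes of highest correlation over libraries. Members, lists and tests were chosen with earlier results of these data known.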

Additional observations from a re-analysis of the deposited data

Results flagged for a closer look

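In 41 groups of 4 mutant values examined, 4 had 1 animal far from the other 3 by Dixon's criterion, and chance alone flags about 1 in 20 groups. Cbx1 in mutant IP was at 73.7 CPM in animal 12, against 149, 158 and 162 CPM in the others. Cbx3 in mutant input was at 32.6 CPM in animal 69, against 75.8, 79.1 and 81.4 CPM. The IP over input TPM ratio of Setdb1 was 2.68 in mutant 94, against 3.72 to 3.82 in the others. That of Kdm4d was 1.22 in mutant 93, against 1.83 to 1.89. Their causes were not tested.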

How the results depend on the processing

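Beside the values given in the report, the number of members called between genotypes in IP was 2 with DESeq2, which called 9.56% of all features, and 1 with limma on log2(TPM + 0.1), which called 7.02%, where Ehmt1 had 1.45 (adjusted p = 0.0407). For IP over input in mutants it was 2 without a filter, 7 with DESeq2 (43.8% of all features), 7 with either limma fit (26.4 and 27.6%), 0 without mutants 12 and 69, and 1 to 3 with 1 animal left out. Without mutants 12 and 69, 6 of 31795 features were called higher and 6 lower. In wild type it was 4 without a filter and 0 to 5 with 1 animal left out. The protein-coding share was called for 0 to 0 members with 1 animal left out. Without the replicate block 4 members were called in mutants, 7 in wild type and 0 in their difference, the same counts as with the block, while the calls of that difference over all features numbered 2 higher and 385 lower without the block and 0 with it. RLE factors moved the median of all features between genotypes in IP to -0.05, against -0.15 with TMM.

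Log2 values that changed sign were these. Between genotypes in input, Cbx1 had -0.040 and -0.039 with limma. Without mutants 12 and 69, Cbx3 had 0.019, Cbx5 0.053, Suv39h2 0.12 and Setdb1 0.047. With 1 animal left out, the ranges were -0.015 to 0.22 for Cbx1, -0.29 to 0.029 for Cbx3, -0.33 to 0.010 for Suv39h2 and -0.10 to 1.82 for Ehmt1. Between genotypes in IP, Suv39h1 had -0.0063 from coding transcripts, -0.0065 without mutants 12 and 69 and -0.22 to 0.24 with 1 animal left out, and Ehmt2 had 0.082 and 0.081 with limma. In IP over input in wild type, Cbx5 had 1.28 and 1.26 with limma and -0.18 to 0.035 with 1 animal left out, and Suv39h2 had -0.10 from coding transcripts. In mutants, Cbx5 had 1.27 and 1.24 and Kdm4d 0.74 and 0.71 with limma. There Suv39h2 had -0.11 with RLE factors or DESeq2, -0.14 with at least 10 counts in every library, -0.019 without the block, -0.37 without mutants 12 and 69, and -0.16 to 0.20 with 1 animal left out. The genotype difference of TPM ratios ran over -0.17 to 0.15 for Cbx5 and -0.22 to 0.052 for Kdm4d with 1 animal left out. The cause was not tested. Of the values for single genes and transcripts and the counts over all features, 671 kept direction and side of the threshold under an alternative, 63 lost and 18 gained a call, 50 counts or shares moved and 38 changed sign.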
